A study of Mus musculus with 9 samples.

Results

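Gene expression in the retinal pigment epithelium (RPE) of untreated mice aged 24 months, called old control here, was compared with that of untreated mice aged 9 months, called young control. The comparison uses 6 of the 9 libraries of the series, 3 old control and 3 young control, chosen by the age and treatment that the labels give, and covers every gene with enough counts to test. Per the labels, all animals carried the wild-type genotype. The other 3 libraries are from mice of 24 months given vutiglabridin, an oral small molecule, for 6 months. They entered the statistical fit and add to its estimate of spread, but not to the difference between old control and young control. The labels give no strain, no sex and no sequencing batch, and they do not state that each library came from a separate animal. The p-values therefore measure the spread between these samples, which may be technical.

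The RPE is the pigmented layer between the photoreceptors and the choroid, the vascular bed of the eye. It regenerates the chromophore of the visual pigments, engulfs shed photoreceptor outer segments and forms the outer blood-retina barrier. Melanin in its melanosomes absorbs stray light. Very few leukocytes lie within the healthy layer, whereas resident macrophages are found in the choroid and in the subretinal space.

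Total counts were 55713593, 50458875 and 48715263 in the old control libraries, against 44196290, 45143840 and 56797891 in the young control libraries, and 28873 to 31660 genes had a count in each. Levels are CPM, counts scaled to the size of each library, per whole gene and not per length. Log2 fold changes are old control over young control ± standard error (SE), with n = 3 libraries per group. A gene is called higher or lower at an adjusted p under 0.05 (edgeR quasi-likelihood test, Benjamini-Hochberg adjustment over all 25273 genes tested). Defining RPE genes were abundant: Rpe65, the retinoid isomerase, stood at 2328, 2431 and 2075 CPM in old control and 3004, 2829 and 3113 CPM in young control. Defining markers of the choroid and its surroundings were present too, at 31.2 to 44.5 CPM for Cdh5 of endothelium, 1513 to 2112 CPM for Dcn of fibroblasts and 34.9 to 44.3 CPM for Sox10 of melanocytes and Schwann cells. The samples hold RNA of more cells than the RPE, and in bulk samples more cells of a type and more RNA per cell cannot be told apart. Young control replicate 1 stood apart from the other 5 libraries on a multidimensional scaling plot (vertical coordinate -2.001, against -0.01 to 0.64 in the other 5) and had the lowest share of counts in mitochondrial genes, 0.889% against 1.15% to 1.27%. Vutiglabridin replicate 2 also stood apart (horizontal coordinate 2.63). None of 10 sex-linked genes was called by edgeR or DESeq2 or had an unadjusted p under 0.05, and the Y-linked gene Ddx3y was present in all 6 libraries, at 140.3, 157 and 128 CPM in old control and 179.9, 158 and 146 CPM in young control. The X-linked gene Xist was counted in all 6 too, at 5.255, 6.92 and 5.93 CPM in old control and 7.27, 6.95 and 7.26 CPM in young control. The sex of the animals was not tested.

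Of the 25273 genes tested, 373 were higher in old control RPE (1.48%) and 51 were lower (0.202%). An unadjusted p under 0.05 by edgeR was found for 2945 of the 25273, the share against which such counts in the lists below are to be read. Interferon-inducible and antigen presentation genes made up 49 of the 373. The other 324 rises and the 51 falls are described here. Their median log2 fold changes were 1.00 and -0.83, against -0.01 over all genes tested, and 164 of the 324 rises and 18 of the 51 falls passed a log2 fold change of 1 in size. In all 324 and all 51 the 3 old control values lay entirely on one side of the 3 young control values, as they did in 6400 of all genes tested (25.3%). Predicted genes made up 64 of the 324 and 17 of the 51. A few genes known from other work to respond to interferon, such as Gvin2, Gvin3, Batf2, Sp110 and Epsti1, stand among the 324 because they are on neither excluded list.

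The number of calls depended on which libraries entered the fit. With the 6 libraries alone, edgeR called 932 of 24491 genes higher (3.81%) and 307 lower (1.25%), and these included 371 of the 373 rises and all 51 falls. With each library left out in turn, the rises outside the interferon and antigen presentation genes numbered 49 without old control replicate 1, 113 without replicate 2 and 87 without replicate 3. They numbered 130 without young control replicate 1, 233 without replicate 2 and 80 without replicate 3. Without vutiglabridin replicate 1, 2 or 3 they numbered 393, 531 and 504. Without vutiglabridin replicate 2 and young control replicate 1 together, 466 genes rose, 410 of them outside the interferon and antigen presentation genes, and 146 fell. The falls numbered 2, 7 and 10 without old control replicates 1, 2 and 3, then 37, 23 and 7 without the young control replicates, and 63, 98 and 96 without the vutiglabridin replicates. Calls that held in all 9 such fits numbered 46 of the 324 rises and 2 of the 51 falls, Thbd and Mme. Beside each gene below, the largest adjusted p over the 9 fits is given where the gene is described in full.

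**Figure D1:**
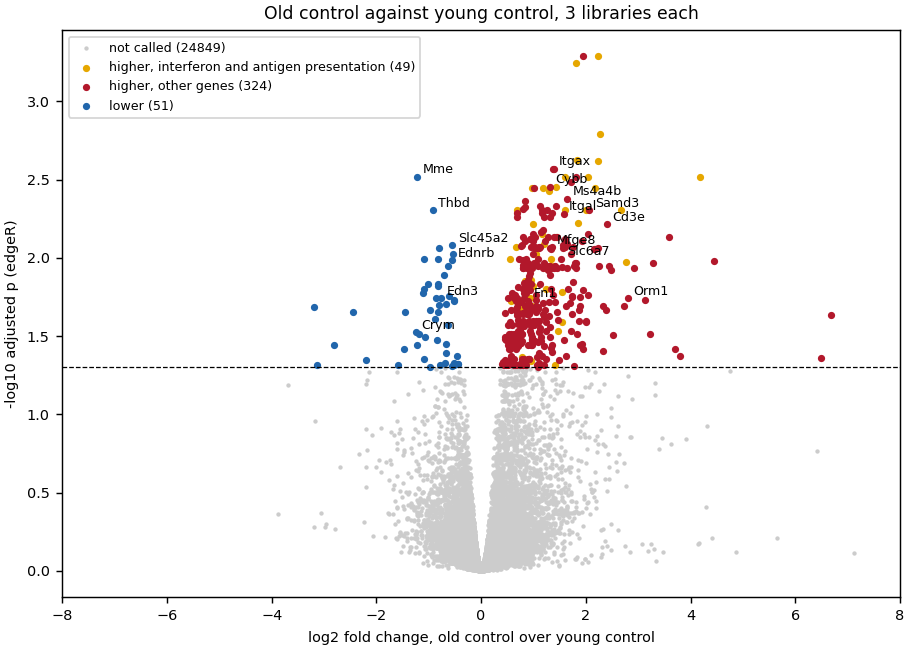
Log2 fold change of old control over young control (x axis) against -log10 of the adjusted p from edgeR (y axis) for all genes tested; the dashed line marks an adjusted p of 0.05. Red points are the 324 rises outside the interferon and antigen presentation genes, orange points the 49 rises within them, and blue points the 51 falls; the rightmost called points, Lypd5 and Ubd, had 0 counts in every young control library, so their fitted fold has no scale.

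Genes of leukocytes were a large group among the rises outside the interferon and antigen presentation genes. Of the 324 rises, 66 were on 5 lists of lymphocyte, macrophage and leukocyte signalling genes and 241 on none of the 56 lists. Of the 51 falls, 0 and 42 were. For T cells, B cells, macrophages, activated phagocytes and leukocyte signalling, the 5 lists held 45, 23, 30, 28 and 55 of the 25273 genes tested. Some genes, such as Cd52, are on more than 1 of them. All 56 lists held 1565 of the 40202 genes with deposited counts. Among T and cytotoxic lymphocyte genes 17 of 45 rose and 0 fell, with a median log2 fold change of 1.30. With 6 libraries 20 rose. The count was 4, 9 and 5 without old control replicates 1, 2 and 3, then 11, 12 and 7 without the young control replicates, and 17 or 18 without a vutiglabridin replicate. The summed level of the whole list was 167, 164 and 183 CPM in old control RPE, against 85.5, 97.3 and 103 CPM in young control RPE.

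The CD3 chains, which carry the signal of the T cell receptor, rose together. Cd3e was low in both groups, at 0.882, 0.7603 and 0.918 CPM in old control, against 0.204, 0.154 and 0.125 CPM in young control. Its log2 fold change was 2.40 ± 0.30 (adjusted p = 0.00609), and the call held in 9 of 9 fits that left out 1 library. Cd3d showed a log2 fold change of 2.45 ± 0.37 (adjusted p = 0.0112) and Cd3g one of 1.70 ± 0.30 (adjusted p = 0.0195). Cd8a, the co-receptor of cytotoxic T cells, was measured at 2.05, 1.66 and 1.84 CPM in old control and 0.4996, 0.594 and 0.6599 CPM in young control. Cd8a rose by 1.65 ± 0.27 log2 units (adjusted p = 0.0157, at most 0.0835 with 1 library left out). The other T cell co-receptor, Cd4, was not called, with 5.38, 4.85 and 4.99 CPM in old control and 3.13, 3.98 and 3.67 CPM in young control and an adjusted p of 0.27.

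Genes of cytotoxic cells were divided between called and not called, but hardly in direction. Of the 45 T and cytotoxic lymphocyte genes, 44 had a positive log2 fold change and 1 a negative one. By edgeR 35 of them had an unadjusted p under 0.05, against 2945 of all 25273 genes tested, and DESeq2 called 25. Of the 45 T and cytotoxic lymphocyte genes, the 28 that were not called include the granule genes Gzma, Gzmb, Gzmk and Prf1, with adjusted p of 0.291, 0.413, 0.268 and 0.376. Klrk1, which encodes the activating receptor NKG2D of natural killer and CD8 T cells, stood at 3.67, 3.59 and 5.05 CPM in old control and 1.34, 1.12 and 1.23 CPM in young control. Klrk1 rose by 1.73 ± 0.29 log2 units (adjusted p = 0.0174, at most 0.0891 with 1 library left out). Fasl, the ligand of the death receptor Fas and on none of the lists, reached 1.799, 2.09 and 1.68 CPM in old control, against 0.5904, 0.462 and 0.749 CPM in young control. Fasl rose by 1.61 ± 0.33 log2 units (adjusted p = 0.0425, at most 0.156 with 1 library left out). The transcription factor Tbx21 (T-bet), which directs type 1 responses, showed a log2 fold change of 2.91 ± 0.45 (adjusted p = 0.0116), and the granule gene Nkg7 one of 2.15 ± 0.31 (adjusted p = 0.00883). Runx3, a factor of cytotoxic lineage choice on the leukocyte signalling list, was at 5.93, 6.12 and 7.901 CPM in old control and 2.11, 2.35 and 2.92 CPM in young control and held its call in 9 of 9 fits. Runx3 rose by 1.43 ± 0.16 log2 units (adjusted p = 0.00466). Among cytokine receptors, Il7r, which receives the survival signal IL-7, was higher at 27.6, 26.2 and 27.2 CPM in old control, against 7.33, 13.3 and 10.5 CPM in young control. Il7r rose by 1.38 ± 0.23 log2 units (adjusted p = 0.0174, at most 0.0945 with 1 library left out). Its ligand Il7 rose too, at 7.67, 8.03 and 7.36 CPM in old control and 4.996, 3.45 and 2.32 CPM in young control; its span overlaps the called gene Gm16685. Il7 rose by 1.10 ± 0.23 log2 units (adjusted p = 0.0468, at most 0.167 with 1 library left out).

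Among the 25 largest annotated rises with a mean of at least 1 CPM, many genes are known from lymphocytes. They included Il23r, the IL-23 receptor (2.72 ± 0.48), Samd3 (2.07 ± 0.25), the Ly49 receptor Klra3 (2.00 ± 0.37), the phosphatase-like regulator Ubash3a (1.80 ± 0.27), Rasgrp1, which links antigen receptors to Ras (1.74 ± 0.30), Tnfsf8, the CD30 ligand (1.65 ± 0.26), the adaptors Grap2 (1.61 ± 0.22) and Lax1 (1.56 ± 0.21), Gimap3 (1.72 ± 0.25), Ms4a4b (1.65 ± 0.19) and Bcl11b, a factor of T cell commitment (1.55 ± 0.24). Of these, Samd3, Ms4a4b, Grap2 and Lax1 were called in 9 of 9 fits with 1 library left out. Itgal, the alpha chain of the adhesion receptor LFA-1, was at 9.77, 9.61 and 10.4 CPM in old control and 2.57, 4.31 and 3.08 CPM in young control. Itgal rose by 1.58 ± 0.19 log2 units (adjusted p = 0.00524, called in 9 of 9 fits). B cell genes gave 1 rise of 23 tested, Cd22, and 0 falls; 3 rose with 6 libraries, and 1 to 3 with 1 library left out. Igkc, the kappa light chain, missed the threshold, with 3.67, 1.42 and 1.66 CPM in old control and 0.477, 0.264 and 0.464 CPM in young control (adjusted p = 0.103, and 0.0122 with 6 libraries).

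**Figure D2:**
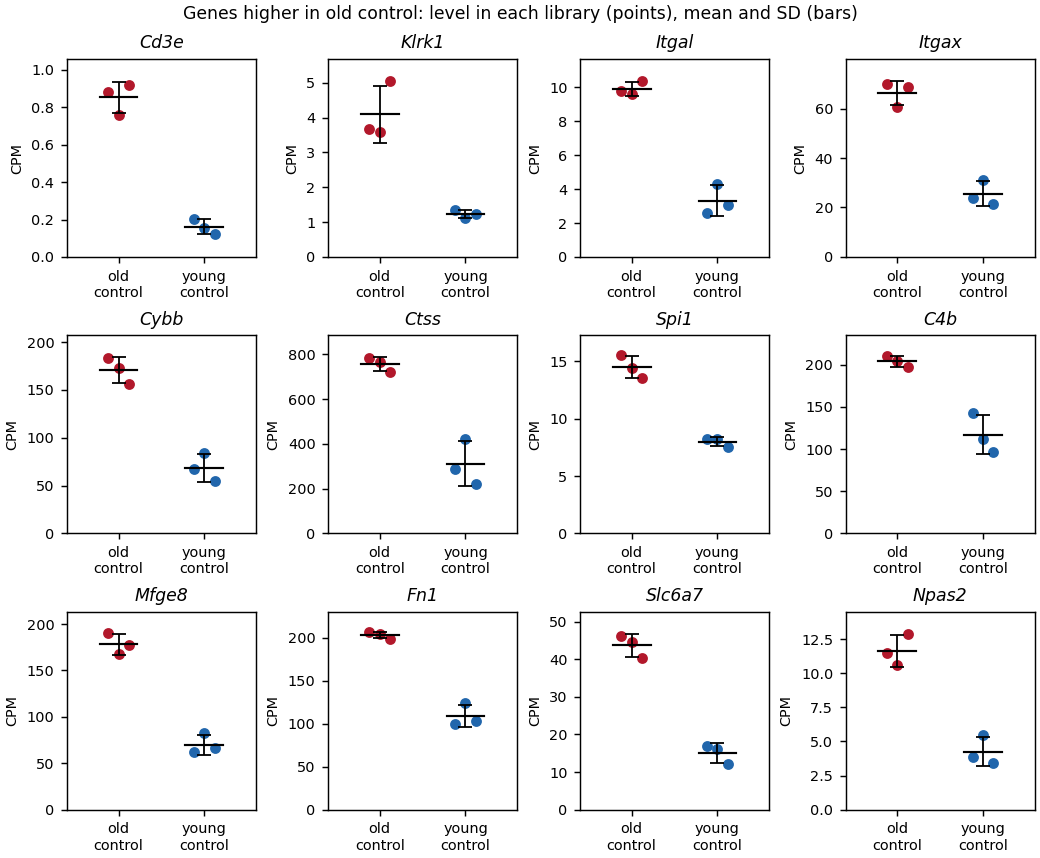
Level of 12 genes higher in old control RPE, in CPM on axes that start at 0; each point is a library, the long bar is the mean and the short bars 1 standard deviation (n = 3 per group). In each panel every old control point lies above every young control point, as for Cybb at 156 CPM or more in old control and 83.5 CPM or less in young control.

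Macrophage and phagocyte genes were more abundant than lymphocyte genes in both groups, and many were higher in old control RPE. Of 30 macrophage and microglia genes 13 rose and 0 fell (median log2 fold change 0.79), and of 28 genes of activated phagocytes 9 rose and 0 fell (median 0.57). With 6 libraries the counts were 20 and 13. The macrophage count was 2, 5 and 4 without old control replicates 1, 2 and 3, then 3, 13 and 4 without the young control replicates, and 14 to 19 without a vutiglabridin replicate; the activated phagocyte count ran from 3, without old control replicate 1, to 11. The macrophage list summed to 6089, 5915 and 5534 CPM in old control RPE, against 2689, 3654 and 2206 CPM in young control RPE. Much of that sum was Lyz2, the lysozyme of myeloid cells, at 3100, 3037 and 2798 CPM in old control and 1141, 1770 and 917 CPM in young control. Lyz2 rose by 1.22 ± 0.22 log2 units (adjusted p = 0.0214, at most 0.104 with 1 library left out). Csf1r, the receptor that sustains macrophages, was not called: it stood at 169.6, 172 and 163 CPM in old control, against 162, 146 and 144 CPM in young control. Its log2 fold change was 0.16 ± 0.08 (adjusted p = 0.496). Among the complement C1q chains only C1qb was called; C1qa had 139, 144 and 127 CPM in old control and 111, 95.1 and 63.6 CPM in young control (adjusted p = 0.332).

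Within the phagocyte genes, Itgax encodes the integrin CD11c, an adhesion receptor of dendritic cells and activated macrophages. It stood at 69.8, 60.8 and 68.6 CPM in old control, against 23.9, 31.1 and 21.4 CPM in young control, and was called in 9 of 9 fits with 1 library left out. Itgax rose by 1.38 ± 0.13 log2 units (adjusted p = 0.00269). Its partner Itgb2, the common beta-2 chain, was at 71.7, 65.8 and 69.8 CPM in old control and 26.6, 39.5 and 26.9 CPM in young control, and Itgam, the CD11b chain, showed a log2 fold change of 0.84 ± 0.14 (adjusted p = 0.0151). Itgb2 rose by 1.16 ± 0.14 log2 units (adjusted p = 0.00513, called in 9 of 9 fits). Tyrobp, the DAP12 adaptor of activating myeloid receptors, was at 53.6, 53.2 and 52.3 CPM in old control and 23.3, 29.4 and 19.5 CPM in young control. Tyrobp rose by 1.14 ± 0.15 log2 units (adjusted p = 0.00686, called in 9 of 9 fits). Ctss, the lysosomal protease cathepsin S, measured 781, 765 and 722 CPM in old control and 289, 419 and 222 CPM in young control. Ctss rose by 1.28 ± 0.20 log2 units (adjusted p = 0.012, at most 0.0661 with 1 library left out). Clec7a, the beta-glucan receptor, Lgals3, galectin-3, and Gpnmb, a lysosomal glycoprotein that pigment cells share with phagocytes, rose by 1.10 ± 0.16, 0.93 ± 0.15 and 0.75 ± 0.14 on the log2 scale (adjusted p = 0.0087, 0.0116 and 0.0289). Microglial Trem2 missed the threshold (adjusted p = 0.052, and 0.0522 with 6 libraries). So did Cx3cr1, the fractalkine receptor (adjusted p = 0.401, and 0.0142 with 6 libraries). Cx3cr1 was at 26.7, 25.7 and 23.1 CPM in old control and 13.1, 13.4 and 7.47 CPM in young control. Its groups do not overlap, as in 25.3% of all genes tested.

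Genes of the phagocyte NADPH oxidase, the complex that makes superoxide in the phagosome, were among the rises; they were picked after the values were seen. The 6 genes described here rose, also with 6 libraries; they are not all genes of the complex, and no share of it is given. With 1 library left out, 1 of them was called without any old control replicate or without young control replicate 1 or 3, and 6 otherwise; Cybb was called in 9 of 9 fits. Cybb, the catalytic subunit gp91phox, stood at 183, 173 and 156 CPM in old control, against 67.1, 83.5 and 54.5 CPM in young control. Cybb rose by 1.32 ± 0.14 log2 units (adjusted p = 0.00351). Its membrane partner Cyba was at 48.9, 47.7 and 46.9 CPM in old control and 30.3, 32.4 and 25.3 CPM in young control. Cyba rose by 0.70 ± 0.12 log2 units (adjusted p = 0.0154, at most 0.0882 with 1 library left out). The cytosolic subunits Ncf1 and Ncf4 showed log2 fold changes of 0.96 ± 0.19 and 0.96 ± 0.17, the GTPase Rac2 one of 1.30 ± 0.22, and the voltage-gated proton channel Hvcn1, which balances the charge, one of 0.54 ± 0.10 (adjusted p = 0.0331, 0.0213, 0.019 and 0.0257).

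Some receptors that set the threshold of myeloid cells rose. Of 25 paired immune receptors, a list also drawn up after the values were seen, 14 rose and 0 fell, and 18 rose with 6 libraries. The count was 1, 3 and 1 without old control replicates 1, 2 and 3, then 1, 12 and 1 without the young control replicates, and 14 or 15 without a vutiglabridin replicate. They include Pira1, Pira2 and Pirb, Lilrb4a and Lilr4b, Cd300lf and Cd300lb, Cd200r1 and Cd200r4, Sirpa, Siglec1 and Cd33. Siglec1, the sialic acid receptor of tissue macrophages, was at 27.6, 23.6 and 25.4 CPM in old control and 10.99, 15.7 and 10.5 CPM in young control. Siglec1 rose by 1.04 ± 0.18 log2 units (adjusted p = 0.0172, at most 0.0903 with 1 library left out). Sirpa, which receives the inhibitory CD47 signal, was abundant, at 264, 243 and 249 CPM in old control, against 184, 192 and 151 CPM in young control. Sirpa rose by 0.52 ± 0.10 log2 units (adjusted p = 0.0267, at most 0.148 with 1 library left out). Cd200r4 was called in 9 of 9 fits, at 19.9, 17.6 and 16.4 CPM in old control and 5.86, 8.93 and 5.76 CPM in young control. Cd200r4 rose by 1.39 ± 0.18 log2 units (adjusted p = 0.00734). The Pir and Lilr genes are near-identical copies between which the counting could split reads, so their separate values are uncertain.

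Sensors of cytosolic danger formed a smaller group, drawn up after the values were seen. Of 15 genes 6 rose: Aim2, the sensor of double-stranded DNA, the flagellin and needle sensors Naip2, Naip5 and Naip6, and the ATP-gated channels P2rx4 and P2rx7. With 6 libraries 9 rose. The count was 0 without any old control replicate by edgeR, 1 without young control replicate 1 or 3, 5 without young control replicate 2, and 7 to 9 without a vutiglabridin replicate. Aim2 was at 27.2, 24.3 and 27.4 CPM in old control, against 11.9, 14.3 and 11.9 CPM in young control. Aim2 rose by 1.05 ± 0.19 log2 units (adjusted p = 0.0251, at most 0.126 with 1 library left out). The Naip genes are close copies, and their separate values are uncertain. Nlrp3, the sensor of the best known inflammasome, was not called, at 2.42, 3.14 and 2.57 CPM in old control and 1.02, 1.19 and 1.87 CPM in young control (adjusted p = 0.421).

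Signalling and motility genes that leukocytes of many kinds share rose in 27 of 55 cases, and 0 fell. With 6 libraries 41 rose. The count was 7, 12 and 10 without old control replicates 1, 2 and 3, then 12, 20 and 7 without the young control replicates, and 32 to 35 without a vutiglabridin replicate. Their summed level was 2518, 2276 and 2422 CPM in old control RPE, against 1528, 1681 and 1513 CPM in young control RPE. Spi1, which encodes PU.1, a master factor of myeloid cells, was at 15.5, 14.4 and 13.6 CPM in old control and 8.22, 8.25 and 7.56 CPM in young control. Spi1 rose by 0.86 ± 0.13 log2 units (adjusted p = 0.0101, at most 0.0653 with 1 library left out). Ikzf1, the lymphoid factor Ikaros, was at 59.4, 48.9 and 54.4 CPM in old control and 29.2, 32.3 and 29.8 CPM in young control. Ikzf1 rose by 0.83 ± 0.10 log2 units (adjusted p = 0.0047, called in 9 of 9 fits). Dock2, the Rac activator of migrating leukocytes, was more abundant, at 199, 182 and 191 CPM in old control, against 100.5, 119 and 110.3 CPM in young control. Dock2 rose by 0.79 ± 0.12 log2 units (adjusted p = 0.0115, at most 0.0654 with 1 library left out). Selplg, the selectin ligand of rolling leukocytes, measured 9.66, 9.51 and 9.697 CPM in old control and 4.496, 4.64 and 4.17 CPM in young control. Selplg rose by 1.12 ± 0.13 log2 units (adjusted p = 0.00466, called in 9 of 9 fits). The summed levels of the T cell, macrophage and leukocyte signalling lists were higher in all 3 old control libraries, while several defining markers, among them Csf1r, Cd4 and C1qa, were not called. Whether cell number or level per cell differed was not tested.

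**Figure D3:**
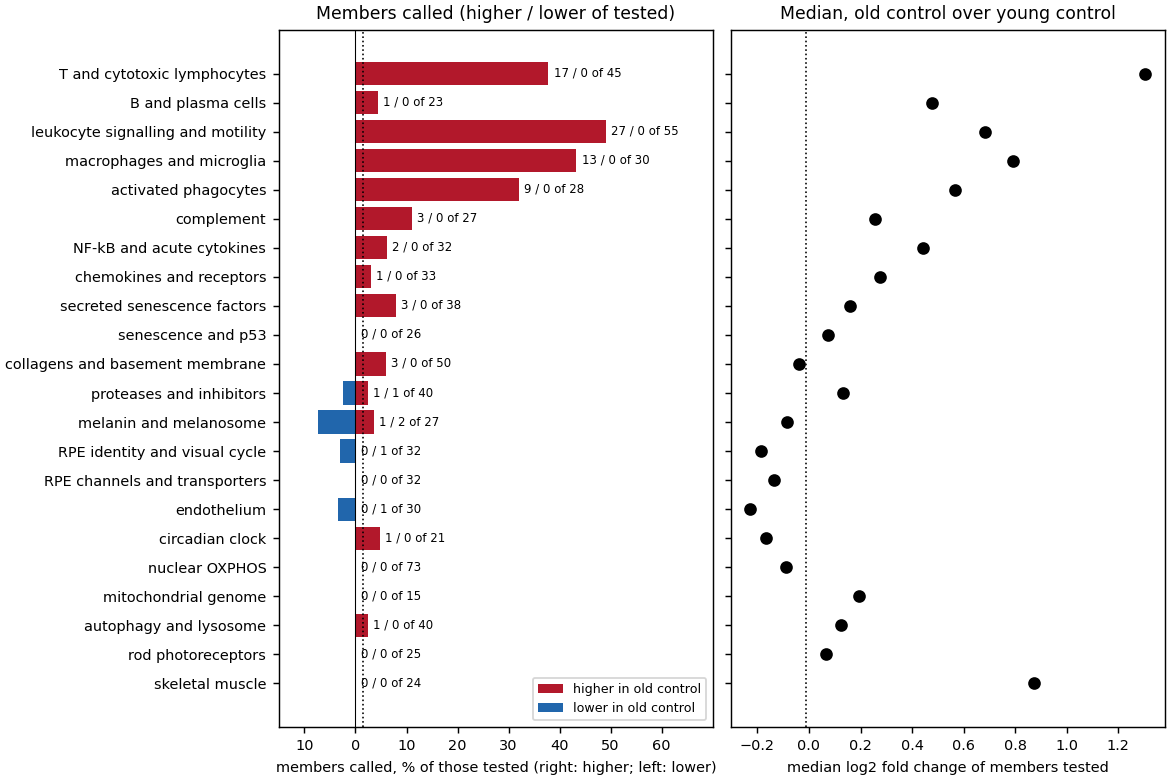
Left, share of each list's tested genes called higher (red, to the right) or lower (blue, to the left) in old control RPE, in percent, with the counts beside each bar and a dotted line at the 1.48% of all genes called higher. Right, median log2 fold change of old control over young control for each list, with a dotted line at the median of all genes tested, -0.01; the leukocyte lists stand to the right, and the visual cycle, channel and endothelium lists to the left.

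The promoters of the risen genes outside the interferon and antigen presentation group were searched for the letters GAGGAAGT, the core that PU.1 is known to bind, and for other short motifs; the shares below were not tested against each other. The windows were RefSeq promoters of GRCm38.p6, 250 bases before to 50 after the start, searched on both strands. The core was found in 23 of 200 promoters of the risen genes (11.5%), in 17 of 193 (8.81%) without the Pir and Lilr copies, in 0 of 24 of the fallen genes and in 394 of 13409 of all protein-coding genes tested (2.94%). The letters GAAA repeated after 2 bases of any kind, an interferon-stimulated response element, occurred in 12 of the 200 (6.0%), in 12 of 32 promoters of the interferon and antigen presentation rises (37.5%), in 0 of 24 of the fallen genes and in 435 of 13409 of all (3.24%). The Runx letters TGTGGTT occurred in 21 of the 200 (10.5%) against 4.05% of all promoters, the AP-1 letters TGAGTCA in 10 (5.0%) against 4.01%, the STAT letters TTCNNNGAA in 21 (10.5%) against 7.14%, and the letters TCATGTG, bound by the pigment cell factor MITF, in 11 (5.5%) against 2.36%. In the 24 fallen genes these 4 sets of letters occurred in 0, 0, 5 (20.8%) and 2 (8.33%) promoters. A match is a description of the letters and not a binding site shown in these samples, and the motifs were chosen with the risen genes known. A window of 100 bases that holds the core is shown for 5 risen leukocyte genes, with the core or its reverse complement in capitals. Each window ends before the start, so no base follows the core in Havcr2 and few do in Arhgap25. Havcr2 encodes the inhibitory receptor TIM-3 (1.01 ± 0.15), Bcl2a1b a survival factor of myeloid cells (0.80 ± 0.12), Il18rap the IL-18 receptor accessory chain (1.39 ± 0.22), Rftn1 a lipid raft protein (0.69 ± 0.12) and Arhgap25 a Rac regulator of phagocytes (1.04 ± 0.18). They lie, in the same order, at chr11:46454831-46454930 (plus strand), chr9:89199079-89199178 (plus), chr1:40515237-40515336 (plus), chr17:50190498-50190597 (minus) and chr6:87496328-87496427 (minus).
Havcr2: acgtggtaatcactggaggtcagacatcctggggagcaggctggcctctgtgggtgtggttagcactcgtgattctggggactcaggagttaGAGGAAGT
Bcl2a1b: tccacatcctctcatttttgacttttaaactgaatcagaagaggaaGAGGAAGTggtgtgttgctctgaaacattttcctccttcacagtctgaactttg
Il18rap: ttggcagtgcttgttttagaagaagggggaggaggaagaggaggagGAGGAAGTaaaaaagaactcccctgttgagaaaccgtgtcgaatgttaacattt
Rftn1: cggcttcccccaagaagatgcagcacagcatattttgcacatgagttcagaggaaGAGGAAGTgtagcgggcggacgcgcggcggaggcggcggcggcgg
Arhgap25: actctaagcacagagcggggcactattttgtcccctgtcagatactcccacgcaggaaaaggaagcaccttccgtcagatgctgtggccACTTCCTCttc

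The interferon element is shown for Ctss, a phagocyte gene outside the excluded lists, beside Igtp, an interferon-inducible GTPase within them, with the matched letters in capitals. The windows cover the 100 bases before the start, at chr3:95526686-95526785 and chr11:58199456-58199555 of GRCm38.p6, both on the plus strand. The other risen genes outside the excluded lists with this element were Cybb, Tnfrsf1b, Slamf8, Gm12250, Tnfrsf14, Aoah, Pld3, Gm7030, Ncf1, Aif1 and Tmem140. The exclusion went by list and symbol only, so interferon or antigen presentation genes under predicted names, as Gm12250 and Gm7030 have, were not excluded. Both count in the 12 of 200, which therefore does not show the element in genes unrelated to interferon.
Ctss: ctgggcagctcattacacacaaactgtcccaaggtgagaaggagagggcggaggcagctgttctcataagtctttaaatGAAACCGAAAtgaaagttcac
Igtp: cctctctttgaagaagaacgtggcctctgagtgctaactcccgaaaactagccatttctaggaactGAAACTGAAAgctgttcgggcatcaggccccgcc

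Secreted and surface proteins of inflammation were called in a few members only, but more had an unadjusted p under 0.05 by edgeR. These were 12 of 27 complement genes, 11 of 33 chemokines and receptors and 15 of 32 NF-kB and acute cytokine genes. Among all genes tested the count was 2945 of 25273. Of the same 27, 33 and 32 genes, 18, 25 and 31 had a positive log2 fold change and 9, 8 and 1 a negative one. Of 27 complement genes 3 rose, C1qb, C4b and Itgax, and 8 did with 6 libraries. C4b, the classical pathway component, was at 211, 204 and 198 CPM in old control, against 142, 112 and 96.9 CPM in young control. C4b rose by 0.81 ± 0.12 log2 units (adjusted p = 0.0115, at most 0.0674 with 1 library left out). C3 missed the threshold at 46.1, 46.7 and 41.8 CPM in old control and 14.7, 19.7 and 12.8 CPM in young control (adjusted p = 0.0649, and 0.00137 with 6 libraries). Of 33 chemokines and receptors only Cxcl16, the membrane-bound ligand of CXCR6, was called, at 37.2, 35.6 and 35.5 CPM in old control and 18.8, 21.1 and 15.8 CPM in young control; its span overlaps the called gene Zmynd15. Cxcl16 rose by 0.96 ± 0.13 log2 units (adjusted p = 0.00854, at most 0.0529 without old control replicate 1). With 6 libraries 3 of the 33 rose, Cxcl16, Ccl8 and Cxcr4, and DESeq2 called 4. Of 32 NF-kB and acute cytokine genes 2 rose, the TNF receptor Tnfrsf1b and the endothelial adhesion molecule Vcam1, against 11 higher and 1 lower with 6 libraries. Tnfrsf1b measured 83.2, 77.8 and 86.2 CPM in old control and 34.3, 51.1 and 39.6 CPM in young control. Tnfrsf1b rose by 0.98 ± 0.13 log2 units (adjusted p = 0.007, called in 9 of 9 fits). The 2 largest annotated rises with a mean of at least 1 CPM were acute-phase genes, the serpin Serpina3f at 3.72, 5.09 and 3.51 CPM in old control and 0.545, 0.242 and 0.517 CPM in young control and the orosomucoid Orm1 at 3.39, 1.85 and 2.95 CPM in old control and 0.159, 0.7697 and 0.2497 CPM in young control. Serpina3f rose by 3.23 ± 0.60 log2 units (adjusted p = 0.0309, at most 0.139 with 1 library left out). Orm1 rose by 2.80 ± 0.47 log2 units (adjusted p = 0.0182, at most 0.105 with 1 library left out). Serpina3f belongs to a cluster of close copies, so its value is uncertain.

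Genes of senescence did not pass. Of 26 senescence and p53 genes 0 were called in either direction by edgeR, against 1.48% and 0.202% of all genes. Of the 26, 5 had an unadjusted p under 0.05, against 2945 of all 25273 genes tested, and DESeq2 called 1. With 6 libraries 1 rose, Cdkn1a. Cdkn1a, the p21 inhibitor of the cell cycle, was at 3.28, 3.96 and 4.57 CPM in old control and 2.18, 2.62 and 2.37 CPM in young control (adjusted p = 0.481, and 0.0437 with 6 libraries). Cdkn2a had 11, 6 and 5 counts in old control RPE, against 7, 2 and 1 counts in young control RPE, and was too low to test. Glb1, the lysosomal beta-galactosidase, was at 54.05, 60.1 and 57.9 CPM in old control and 49.1, 56.96 and 54.1 CPM in young control (adjusted p = 0.815), and Lmnb1 at 11.8, 10.5 and 12.2 CPM in old control and 9.06, 9.24 and 9.399 CPM in young control (adjusted p = 0.281). Of 38 secreted factors associated with senescence 3 rose, Mmp12, Mmp14 and Il7, all of which leukocytes or stroma also express; with 1 library left out the count ran from 0 to 7. With 6 libraries 10 of the 38 rose and 2 fell, and DESeq2 called 8 higher.

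Matrix and adhesion genes held some abundant rises. Mfge8, the bridging protein that links shed outer segments and apoptotic cells to integrins, stood at 190.2, 168 and 177 CPM in old control, against 61.7, 82.4 and 66.3 CPM in young control. Mfge8 rose by 1.35 ± 0.19 log2 units (adjusted p = 0.00855, at most 0.0571 with 1 library left out). It was the 1 member called of 22 outer segment phagocytosis genes, of which 2 rose and 1 fell with 6 libraries; the receptor Mertk was at 339.9, 339.8 and 348 CPM in old control and 308, 338 and 362 CPM in young control (adjusted p = 0.976). Fn1, fibronectin, was at 206, 204 and 199 CPM in old control and 100.1, 124 and 103 CPM in young control, and the wound matrix protein Tnc at 70.3, 58.4 and 66.4 CPM in old control and 39.6, 32.1 and 39.8 CPM in young control. Fn1 rose by 0.90 ± 0.16 log2 units (adjusted p = 0.0188, at most 0.102 with 1 library left out). Tnc rose by 0.81 ± 0.17 log2 units (adjusted p = 0.0486, at most 0.207 with 1 library left out). With Loxl1, which crosslinks elastin (0.51 ± 0.10), they were the 3 rises among 50 collagen and basement membrane genes, with 0 falls. With 6 libraries 3 rose and 2 fell, Col5a2 and Lamb1 (adjusted p = 0.0355 and 0.0182). Without any 1 old control replicate, or without young control replicate 1 or 3, 0 of the 50 rose, and 1 to 3 did in the other fits. Mmp14, the membrane-bound collagenase, measured 95.97, 87.3 and 94.4 CPM in old control and 51.95, 62.4 and 48.4 CPM in young control, and Mmp12, the macrophage elastase, rose by 0.66 ± 0.13 (adjusted p = 0.038). Mmp14 rose by 0.77 ± 0.11 log2 units (adjusted p = 0.00835, at most 0.0536 without old control replicate 1). Cdh13, an adiponectin-binding cadherin, was at 85.1, 78.3 and 95.7 CPM in old control and 49.3, 46.4 and 48.8 CPM in young control; its span overlaps the called gene Gm51555. Cdh13 rose by 0.84 ± 0.10 log2 units (adjusted p = 0.00432, called in 9 of 9 fits). The glypican Gpc1, the Wnt antagonist Sfrp4 and the collagen-binding Aebp1, noticed after the values were seen, showed log2 fold changes of 0.48 ± 0.09, 0.72 ± 0.14 and 0.45 ± 0.09 (adjusted p = 0.0337, 0.0356 and 0.0452).

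A few rises concerned metabolism, transport and other functions. Slc6a7, the proline transporter PROT, best known from neurons, was at 46.2, 44.7 and 40.2 CPM in old control, against 17.1, 16.1 and 12.1 CPM in young control. Slc6a7 rose by 1.53 ± 0.22 log2 units (adjusted p = 0.0101, at most 0.0572 with 1 library left out). The following were picked after the values were seen. Cdo1, cysteine dioxygenase, was at 37.9, 34.5 and 33.02 CPM in old control and 13.1, 19.8 and 12.2 CPM in young control, and Hk3, the hexokinase of myeloid cells, at 27.2, 26.3 and 27.3 CPM in old control and 13.3, 16.1 and 11.4 CPM in young control. Cdo1 rose by 1.23 ± 0.17 log2 units (adjusted p = 0.0078, called in 9 of 9 fits). Hk3 rose by 0.99 ± 0.13 log2 units (adjusted p = 0.0078, called in 9 of 9 fits). Kynu, kynureninase of tryptophan breakdown, stood at 18.4, 16.98 and 21.8 CPM in old control and 5.95, 9.37 and 5.01 CPM in young control. Kynu rose by 1.49 ± 0.30 log2 units (adjusted p = 0.0447, at most 0.184 with 1 library left out). Slc11a1, the phagosomal metal transporter NRAMP1, rose by 0.74 ± 0.13 (adjusted p = 0.019), and Fth1, the heavy chain of the iron store ferritin and the only call among 34 NRF2 and antioxidant genes (3 rose with 6 libraries), by 0.67 ± 0.14 (adjusted p = 0.0481). Atp6v0d2, a proton pump subunit of osteoclasts and macrophages, was the only call among 40 autophagy and lysosome genes, at 158, 142 and 162 CPM in old control and 49.8, 91.8 and 74.1 CPM in young control; 8 of the 40 rose with 6 libraries. Atp6v0d2 rose by 1.10 ± 0.20 log2 units (adjusted p = 0.0251, at most 0.115 with 1 library left out). Csmd1, a large transmembrane complement regulator of neurons, stood at 361, 334 and 335 CPM in old control and 195, 221 and 184 CPM in young control and overlaps the called genes Gm16347 and Gm39136. Csmd1 rose by 0.78 ± 0.11 log2 units (adjusted p = 0.00833, at most 0.0536 without old control replicate 1). Hnf4g, a nuclear receptor, was at 2.54, 1.74 and 2.33 CPM in old control and 0.636, 0.6597 and 0.517 CPM in young control. Hnf4g rose by 1.87 ± 0.35 log2 units (adjusted p = 0.0252, at most 0.131 with 1 library left out).

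Npas2, a partner of BMAL1 in the circadian clock, was the only clock gene called, at 11.5, 10.6 and 12.9 CPM in old control, against 3.86, 5.498 and 3.42 CPM in young control. Npas2 rose by 1.45 ± 0.19 log2 units (adjusted p = 0.00734, called in 9 of 9 fits). Arntl, which encodes BMAL1, missed the threshold at 35.7, 34.1 and 37.4 CPM in old control and 23.6, 21.2 and 24.2 CPM in young control (adjusted p = 0.0604), and so did its repressor target Nr1d2 at 269, 272 and 260.4 CPM in old control and 339, 351 and 361 CPM in young control (adjusted p = 0.0604). With 6 libraries 2 of 21 clock genes rose, Npas2 and Arntl, and 5 fell, Per3, Cry1, Nr1d2, Dbp and Tef. Per3 was at 156, 156 and 162 CPM in old control and 202, 242 and 268 CPM in young control (adjusted p = 0.141, and 0.00946 with 6 libraries). The labels give no hour of collection, so time of day and age cannot be told apart for these genes.

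Falls were fewer and smaller. Of the 51 genes lower in old control RPE, 17 have only a predicted name and 14 overlap another called gene, so that some pairs share reads. The 2 falls that held in 9 of 9 fits with 1 library left out encode surface proteins. Mme, neprilysin, the membrane peptidase that degrades amyloid beta, natriuretic and other small peptides, stood at 8.64, 7.76 and 8.74 CPM in old control, against 17.6, 19.3 and 21.6 CPM in young control. Mme fell by 1.22 ± 0.12 log2 units (adjusted p = 0.00303, at most 0.0249 with 1 library left out). Thbd, thrombomodulin, the thrombin receptor that turns on protein C on endothelium, stood at 44.1, 40.6 and 48.2 CPM in old control, against 79.1, 86.7 and 85.6 CPM in young control. Thbd fell by 0.92 ± 0.11 log2 units (adjusted p = 0.00498, at most 0.0405 with 1 library left out). Mme lies at chr3:63202632-63291134 and Thbd at chr2:148246391-148250108 in the deposited coordinates, and neither overlaps another gene. In the treated mice of the same age, Mme was at 5.77, 7.16 and 6.47 CPM and Thbd at 50.3, 56.4 and 42.9 CPM.

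Thbd was the only call among 30 endothelium genes, whose median log2 fold change was -0.23 and of which 24 were negative. The list summed to 1811, 1775 and 1899 CPM in old control RPE, against 2069, 2136 and 2379 CPM in young control RPE, ranges that do not overlap. With 6 libraries 6 of the 30 fell, among them the receptors Tek and Tie1. Tek, the angiopoietin receptor, was at 97.1, 102 and 97.98 CPM in old control and 135, 120.4 and 139 CPM in young control (adjusted p = 0.0976, and 0.0109 with 6 libraries). Adm, the vasodilator adrenomedullin, was the only call among 25 hypoxia and angiogenesis genes (3 fell with 6 libraries), at 2.56, 2.87 and 3.53 CPM in old control and 7.198, 5.54 and 6.31 CPM in young control, and it overlaps the predicted gene Gm28863, which fell likewise. Adm fell by 1.09 ± 0.18 log2 units (adjusted p = 0.0157, at most 0.104 with 1 library left out). Rgcc, a cell cycle regulator of endothelium, was at 12.2, 11.6 and 10.4 CPM in old control and 18.5, 20.4 and 22.8 CPM in young control, and at 40.5, 34.6 and 24.7 CPM in the treated mice. Rgcc fell by 0.85 ± 0.17 log2 units (adjusted p = 0.0337, at most 0.172 with 1 library left out). What part a different share of endothelium has in these falls was not tested.

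Single members of the endothelin and KIT ligand systems, which pigment cells use, were among the falls. Edn3, endothelin 3, the ligand that drives melanoblast growth in development, was at 168, 165 and 174 CPM in old control, against 221, 331 and 311 CPM in young control. Edn3 fell by 0.77 ± 0.13 log2 units (adjusted p = 0.0181, at most 0.107 with 1 library left out). Its receptor Ednrb was at 265, 289.8 and 266 CPM in old control and 404, 412 and 389.7 CPM in young control, with the call lost without old control replicate 1 or 3; the predicted gene Gm35197 shares its span and its fall. Ednrb fell by 0.55 ± 0.08 log2 units (adjusted p = 0.0103, at most 0.0924 with 1 library left out). Of the 6 endothelin genes tested, a list drawn up after the values were seen, the other 4 were not called, Ednra having an adjusted p of 0.686 and Edn1 of 0.983. Kitl, the ligand of the receptor KIT on melanocytes and mast cells, was at 187, 175 and 189 CPM in old control and 228, 285 and 272 CPM in young control, the only call among 45 growth factors and receptors. With 6 libraries 3 of the 45 rose and 5 fell, and 0 fell without any 1 old control replicate or without young control replicate 2 or 3. Kitl fell by 0.51 ± 0.11 log2 units (adjusted p = 0.048, at most 0.236 with 1 library left out).

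A pair of abundant melanosome genes fell. Slc45a2, a melanosome transporter needed for normal pigment, stood at 129.8, 129.7 and 124 CPM in old control, against 188, 188 and 185 CPM in young control. Slc45a2 fell by 0.55 ± 0.08 log2 units (adjusted p = 0.00833, at most 0.0649 with 1 library left out). Pmel, the fibril protein on which melanin is laid down, was at 864, 892 and 837 CPM in old control and 1169, 1213 and 1121 CPM in young control. Pmel fell by 0.43 ± 0.09 log2 units (adjusted p = 0.0477, at most 0.265 with 1 library left out). They were the 2 falls among 27 melanin and melanosome genes, in which Gpnmb rose. With 6 libraries 9 of the 27 fell, adding Tyr, Tyrp1, Dct, Oca2, Slc24a5, Gpr143 and Sytl2, and with 1 library left out 0 to 5 fell. Tyrp1, a melanin synthesis enzyme, was at 1420, 1482 and 1325 CPM in old control and 1989, 1979 and 1804 CPM in young control (adjusted p = 0.0619, and 0.00872 with 6 libraries), and Dct, dopachrome tautomerase, at 1303, 1361 and 1284 CPM in old control and 2058, 1831 and 1647 CPM in young control (adjusted p = 0.0778, and 0.0134). RPE and choroidal melanocytes both express these genes. Ednrb was the only fall among 11 melanocyte genes, and 2 fell with 6 libraries. Of the 3 defining markers, Kit, the receptor of Kitl, was not called (adjusted p = 0.152, and 0.0289 with 6 libraries). Kit stood at 24.3, 24.1 and 23.7 CPM in old control and 29.3, 31.5 and 35.5 CPM in young control. Its groups do not overlap, as in 25.3% of all genes tested. Mlana was at 127, 134 and 119.6 CPM in old control and 185, 165 and 132 CPM in young control and Sox10 at 37.8, 39.9 and 40.4 CPM in old control and 34.95, 41.7 and 44.3 CPM in young control, and the groups overlap for both.

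**Figure D4:**
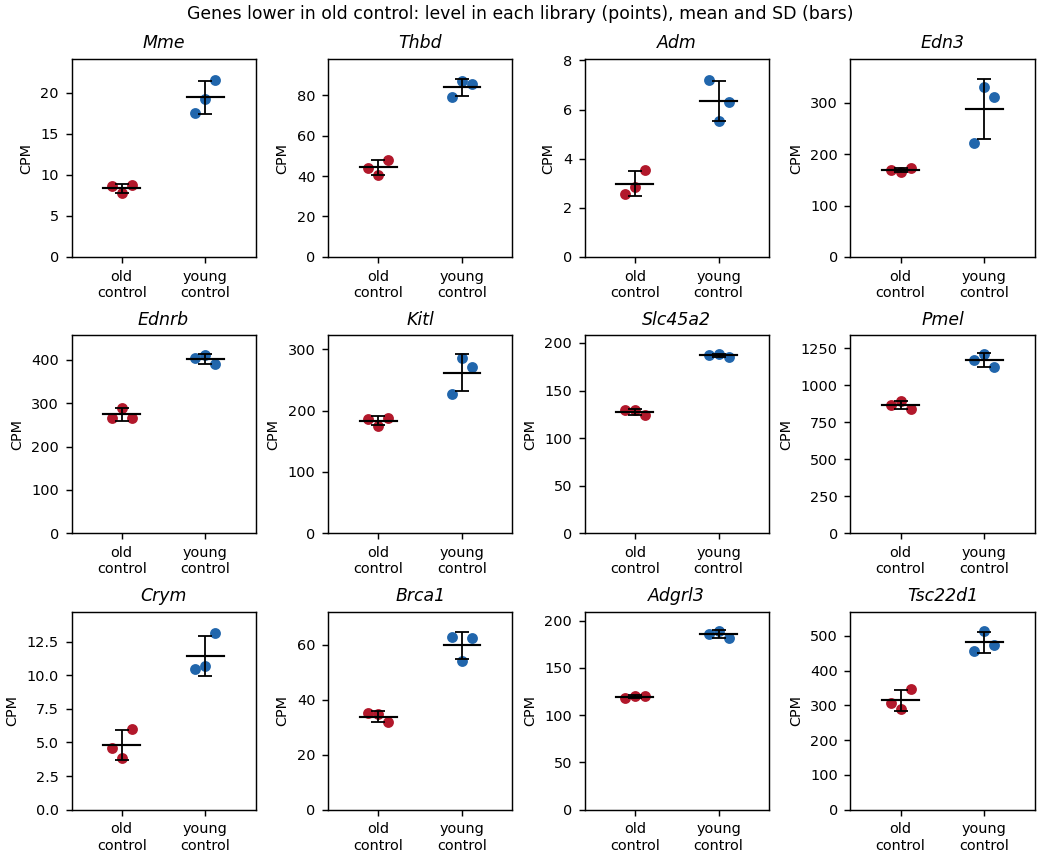
Level of 12 genes lower in old control RPE, in CPM on axes that start at 0; each point is a library, the long bar is the mean and the short bars 1 standard deviation (n = 3 per group). In each panel every old control point lies below every young control point, as for Slc45a2 at 129.8 CPM or less in old control and 184.8 CPM or more in young control.

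Genes of the visual cycle lay mostly below 0 on the log2 scale but did not pass the test. Of 32 RPE identity and visual cycle genes, only Pmel was called, the median log2 fold change was -0.19 and 25 of the 32 were negative. Rpe65, whose values are given above, had a log2 fold change of -0.39 ± 0.13 (adjusted p = 0.249), and with 6 libraries an adjusted p of 0.0249. Lrat, which esterifies retinol, was at 1211, 1447 and 1102 CPM in old control and 1767, 1878 and 1690 CPM in young control (adjusted p = 0.314, and 0.0243 with 6 libraries). For both genes the old control and young control values do not overlap, as in 25.3% of all genes tested. Rlbp1, the retinaldehyde carrier, and Ttr, transthyretin, had adjusted p of 0.642 and 0.503, and Best1, an anion channel, one of 0.658. The list summed to 26920, 29380 and 25320 CPM in old control RPE, against 34750, 31610 and 32750 CPM in young control RPE. In 32 RPE channels and transporters 0 were called by edgeR or DESeq2, and 23 were negative. Of the 32, 5 had an unadjusted p under 0.05, against 2945 of all 25273 genes tested.

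Some of the remaining falls encode enzymes, a carrier and a hormone-binding protein; they come from no single list. Otc, the urea cycle enzyme ornithine transcarbamylase, was at 0.988, 1.33 and 1.08 CPM in old control and 2.11, 3.497 and 3.67 CPM in young control, and it overlaps the called gene LOC118568439. Otc fell by 1.45 ± 0.26 log2 units (adjusted p = 0.0221, at most 0.144 with 1 library left out). Ggt1, which breaks down extracellular glutathione, was at 9.19, 9.08 and 8.22 CPM in old control, against 23.4, 15.5 and 13.5 CPM in young control. Ggt1 fell by 0.98 ± 0.21 log2 units (adjusted p = 0.0497, at most 0.222 with 1 library left out). Cyp4b1, a fatty acid hydroxylase, was at 16.2, 18.2 and 15.3 CPM in old control and 38.9, 25.8 and 27.4 CPM in young control. Cyp4b1 fell by 0.89 ± 0.16 log2 units (adjusted p = 0.0244, at most 0.135 with 1 library left out). Slc25a34, a mitochondrial carrier, was at 7.58, 8.32 and 7.78 CPM in old control and 16.1, 11.6 and 15.6 CPM in young control. Slc25a34 fell by 0.87 ± 0.15 log2 units (adjusted p = 0.0181, at most 0.115 with 1 library left out). Crym, mu-crystallin, a thyroid hormone binding protein, measured 4.57, 3.84 and 6.005 CPM in old control and 10.5, 10.7 and 13.1 CPM in young control, and Scd3, a stearoyl-CoA desaturase whose family shares sequence, had a log2 fold change of -0.69 ± 0.15 (adjusted p = 0.0468). Crym fell by 1.25 ± 0.24 log2 units (adjusted p = 0.0299, at most 0.161 with 1 library left out). Among 73 nuclear genes of oxidative phosphorylation, 15 of the mitochondrial genome, 29 of fatty acid oxidation, 21 of glycolysis and 56 of the cytosolic ribosome 0 were called by edgeR or by DESeq2, and 0, 1, 1, 1 and 0 had an unadjusted p under 0.05. With 6 libraries only glycolysis had any call among these lists, with 2 higher and 1 lower. The median log2 fold change of the 73 was -0.09, and 63 of them were negative. Their sum was 2509, 2712 and 2472 CPM in old control RPE, against 3157, 2570 and 2469 CPM in young control RPE, with young control replicate 1 the highest of the 6 and the ranges overlapping.

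The remaining named falls concern adhesion, cytoskeleton and signalling. Cldn11, the tight junction claudin of myelin and other barriers, was at 9.29, 9.18 and 11.8 CPM in old control, against 19.03, 19.2 and 15.6 CPM in young control. Cldn11 fell by 0.83 ± 0.15 log2 units (adjusted p = 0.0223, at most 0.145 with 1 library left out). Adgrl3, a latrophilin adhesion receptor, was at 118, 121 and 120.0 CPM in old control and 186, 189.6 and 181 CPM in young control. Adgrl3 fell by 0.63 ± 0.10 log2 units (adjusted p = 0.0112, at most 0.0783 with 1 library left out). Hhip, which binds and blocks hedgehog ligands, was at 14.7, 14.1 and 14.3 CPM in old control and 23.6, 26.3 and 26.7 CPM in young control. Hhip fell by 0.83 ± 0.14 log2 units (adjusted p = 0.0152, at most 0.0835 with 1 library left out). Brca1, a homologous recombination factor, was at 35.2, 34.6 and 31.8 CPM in old control and 62.7, 54.05 and 62.6 CPM in young control, while 0 of 30 cell division genes were called by edgeR, 1 having an unadjusted p under 0.05 and 1 being called by DESeq2. Brca1 fell by 0.82 ± 0.12 log2 units (adjusted p = 0.0101, at most 0.0635 with 1 library left out). Tsc22d1, a leucine zipper gene induced by TGF-beta, was abundant, at 306, 289 and 348 CPM in old control and 457, 514 and 474 CPM in young control. Tsc22d1 fell by 0.62 ± 0.10 log2 units (adjusted p = 0.0174, at most 0.116 with 1 library left out). The dynein intermediate chain Dync1i1, which overlaps Gm34527, the stathmin Stmn3, and the secreted Crispld1, which overlaps Gm16070, had log2 fold changes of -1.11 ± 0.18, -0.82 ± 0.13 and -0.80 ± 0.11 (adjusted p = 0.0167, 0.0148 and 0.00863). Col26a1, a minor collagen, gave the largest annotated fall with a mean of at least 1 CPM, at 2.56, 1.89 and 4.13 CPM in old control and 5.75, 8.29 and 9.61 CPM in young control, and it overlaps the called gene Gm20485. Col26a1 fell by 1.46 ± 0.30 log2 units (adjusted p = 0.0383, at most 0.202 with 1 library left out). Kirrel3, an adhesion molecule of the nephrin family, Prex2, a Rac exchange factor, and Car8, a carbonic anhydrase-related protein, picked after the values were seen, had log2 fold changes of -0.51 ± 0.09, -0.52 ± 0.09 and -0.52 ± 0.11 (adjusted p = 0.019, 0.0186 and 0.0468).

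Other tissue in the samples was followed with the same lists. In 24 skeletal muscle genes 0 were called by edgeR or DESeq2 and 1 had an unadjusted p under 0.05, but the median log2 fold change was 0.87 and the list summed to 732, 1634 and 1408 CPM in old control RPE, against 816, 294 and 883 CPM in young control RPE, with old control replicate 1 inside the young control range. In 25 rod genes 0 were called by edgeR or DESeq2, 0 had an unadjusted p under 0.05, and their sums overlapped, at 1108, 1185 and 1242 CPM in old control RPE and 1254, 1052 and 1301 CPM in young control RPE. Keratinocyte Krt14 was at 0 in old control replicate 2 and in all 3 young control libraries, at 0.0353 CPM in old control replicate 1 and at 1.04 CPM in old control replicate 3. Krt5 reached 5.43 CPM in old control replicate 3. Of 15 stratified epithelium genes 0 were called by edgeR or DESeq2 and 1 had an unadjusted p under 0.05. Their median log2 fold change was 2.05, but the filter covered all 9 libraries and some members were near 0 in most of the 6 compared. Krt14, for one, reached 24.96 and 3.57 CPM in vutiglabridin replicates 2 and 3. With 6 libraries 9 of the genes were tested, with a median of 0.742. The sums of the list overlapped, at 112, 120.0 and 142 CPM in old control RPE and 131, 100.4 and 128 CPM in young control RPE. Of 9 red blood cell genes 0 were called by edgeR and 1 by DESeq2, with 1 at an unadjusted p under 0.05. Signalling lists also held 0 calls by edgeR, with 44 Wnt, 36 TGF-beta and BMP and 19 Notch genes tested. Of these, 9, 7 and 3 had an unadjusted p under 0.05, against 2945 of all 25273 genes tested. DESeq2 called 0, 3 and 0 of them. With 6 libraries 1, 6 and 1 of them rose and 0 fell, and with 1 library left out 0, 0 to 3 and 0 rose. No call by edgeR was made either for 40 cholesterol and lipid handling genes and 36 of heat shock and the unfolded protein response, of which 10 and 2 had an unadjusted p under 0.05, DESeq2 called 2 and 0, and 3 and 1 rose with 6 libraries. The part of muscle tissue in any rise named here was not tested.

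**Figure D5:**
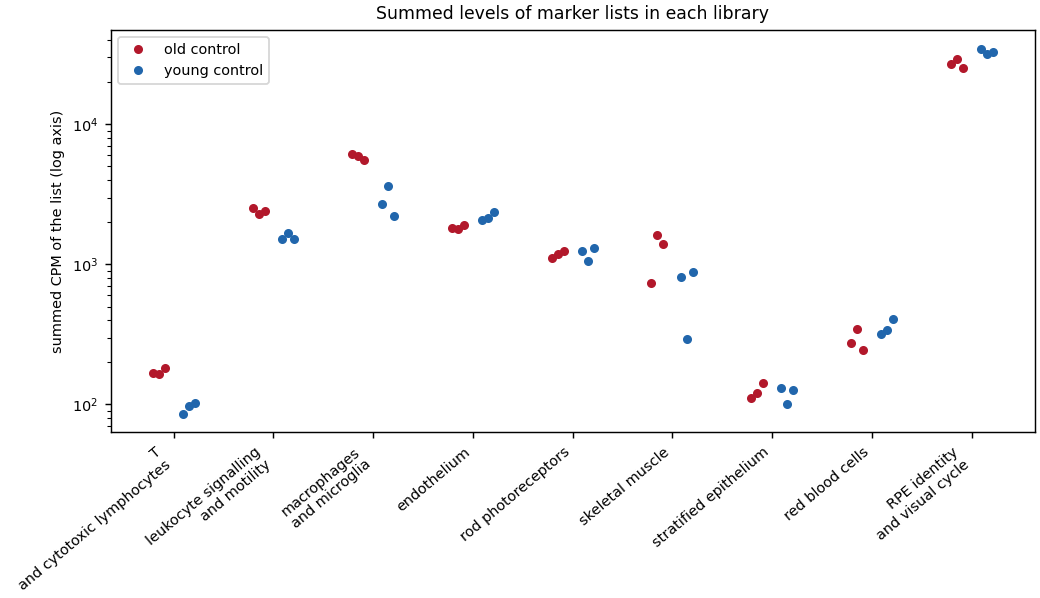
Summed CPM of 9 marker lists (log axis), with old control points to the left of young control points for each list; each point is a library. The T cell, leukocyte and macrophage sums lie higher in all 3 old control libraries, at 164 to 183 against 85.5 to 103 CPM for the T cell list, whereas the rod and stratified epithelium sums overlap between the groups.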

How the data were processed

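TRIzol RNA was made into libraries with a stranded total RNA kit, per the labels' protocols. The submitters' processing notes name Bowtie2 2.3.4.1, featureCounts 1.6.0, DESeq2 and the build GRCm38. The deposited table holds a raw count per gene and library for 40202 genes; its FPKM columns, which equal the count over the whole gene span and the library total, were deposited by the authors and not used. Deposited coordinates carry GRCm39 chromosome versions, and only 811 of 38693 genes matched by symbol start at the same base in GRCm38.p6, so no coordinate was converted and promoter windows are given in GRCm38.p6. Since counting covered introns and did not separate strands visibly, and 17810 genes overlap another, overlapping genes cannot be told apart. The deposited biotype column, out of step with the symbols, was not used.

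Genes were kept by edgeR's filterByExpr over the 3 groups (25273 genes), scaled by TMM and fitted for all 9 libraries by the robust quasi-likelihood method of edgeR 4.0.16 (R 4.3.3), without covariates, as old control minus young control; SE is the fold change over the root of its F statistic. Adjusted p-values are from this fit unless 6 libraries are named. The fitting script was tested on simulated counts. The excluded group was the interferon-inducible and antigen presentation lists and symbols beginning with H2-, Gbp, Ifi, Oas, Irgm and the like. The 56 lists held 1613 symbols, of which 1565 were found; 5 more lists were drawn up after the values were seen, not all members of which are reported here. The comparison, the lists and the named genes were chosen with earlier results of these data known. The rule took 25 annotated rises outside the excluded group and 25 falls of greatest size, if called, at a mean of at least 1 CPM and with groups that do not overlap, called members of each list with up to 4 others of smallest p, and 14 genes of prior interest; others are said to have been picked after their values were seen, as were the promoter genes. Motifs other than the 6 reported were looked at and are not reported. Same-numbered old control and young control libraries did not deviate together. Alternatives were other size factors, DESeq2 1.42.0, limma-voom 3.58.1 with quality weights, other filters and thresholds, only 6 libraries, only genes that overlap no other, the replicate number as a block, each library left out and, chosen after seeing the data, the 2 libraries that stand apart left out together.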

Additional observations from a re-analysis of the deposited data

How the results depend on the processing

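All alternatives kept the direction of the 226 named genes that each could test, of which 203 were called; 22 alternatives were run. The numbers of genes higher, lower and higher outside the interferon and antigen presentation genes, 373, 51 and 324 as reported, became 932, 307 and 863 with only the 6 libraries compared, 754, 195 and 686 with DESeq2, and 1348, 730 and 1261 with limma-voom and quality weights. At an adjusted p under 0.01 they were 87, 5 and 63, and under 0.10 they were 569, 108 and 510. Among genes that overlap no other, 28 fell. Without vutiglabridin replicate 2 and young control replicate 1, an alternative chosen after seeing the data, 146 fell. With each library left out in turn, 71 to 590 genes were higher, 2 to 98 lower and 49 to 531 higher outside the interferon and antigen presentation genes; leaving out old control replicate 1 gave the fewest and vutiglabridin replicate 2 the most. The cause of these differences was not tested. Other size factors and filters kept all 3 counts within 1.5 times. Same-numbered libraries of the 2 groups correlated at 0.031, 0.077 and 0.046 in their deviations, so the numbers are not taken as pairs; with the replicate number as a block, 285 genes were higher, 37 lower and 237 higher outside the interferon and antigen presentation genes. With 3 libraries per group, small changes of single genes may stay below the threshold, and a missed threshold does not show that the groups are alike.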

Other observations

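In the fit of 6 libraries, some gene groups described above only in part had further members past the threshold. Pdgfrb, the receptor of pericytes, was higher in old control RPE, at 177, 173 and 179 CPM in old control, against 123, 127 and 125 CPM in young control (edgeR adjusted p = 0.00137 with 6 libraries, 0.167 with all 9). Il33, an alarmin stored in nuclei, was lower, at 12.3, 12.8 and 11.9 CPM in old control and 17.4, 20.2 and 25.9 CPM in young control (edgeR adjusted p = 0.0147 with 6 libraries, 0.294 with all 9). Pdgfra of fibroblasts was lower, at 162, 154 and 172 CPM in old control and 192, 238 and 211 CPM in young control (edgeR adjusted p = 0.0314 with 6 libraries, 0.26 with all 9). All 3 genes were picked after their values were seen, and in each the groups do not overlap, as in 25.3% of all genes tested.

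Several genes that differed between old control and young control RPE stood elsewhere in the treated mice of 24 months; these are levels only, since the comparison of treated with untreated mice shares the old control libraries. Fn1 was at 433, 608 and 387 CPM and Tnc at 172, 226 and 135 CPM in the treated libraries, above all 6 untreated ones. Crispld1, at 28.8, 37.8 and 35.9 CPM, and Edn3, at 116, 119 and 112 CPM, lay below all 6. Batf2, at 0.954, 1.54 and 1.11 CPM in the treated libraries, lay near young control; it stood at 4.23, 4.25 and 3.27 CPM in old control, against 0.772, 1.58 and 1.11 CPM in young control.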
